A study of Rattus norvegicus with 71 samples.

Results

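The cell cycle genes described here are 40 symbols of proliferating cells, and 39 of them were rows of the deposited count table of 17494 genes (for Cenpe only the promoter was analysed here, not the level). They were chosen by name as 14 replication and S phase genes, 18 measured G2/M and mitosis genes, 5 G1 cyclins and kinases and 2 checkpoint kinases. Every measured member had at least 30 counts in each of 71 animals, and all 39 passed the filter on low counts in each comparison. A dividing cell first commits to a cycle through the D-type cyclins with Cdk4 and Cdk6, copies its DNA in S phase with the Mcm2 to Mcm7 helicase, the clamp Pcna and enzymes that supply nucleotides, and then enters mitosis under Cdk1 with cyclins A and B. The neonatal rat forebrain still holds dividing cells, among them glial precursors, progenitors of the dentate gyrus and those of the zone along the lateral ventricle. Transcripts of the replication genes are controlled largely by E2F factors, and those of the mitotic genes by the complexes that bind CHR elements and CCAAT boxes.

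RNA came from 1 brain slice of each of 71 wild-type Sprague-Dawley rats on postnatal day 2, 35 male and 36 female, from 27 litters. The slice was coronal and took in the hippocampal formation and the cortical and subcortical structures around it. All dams received adjuvant. Control dams got it with saline, and the other dams with peptides of the antigens that maternal autoantibody-related autism (MARA) autoantibodies bind, so that their offspring were exposed in the womb to antibodies against those antigens. Control held 24 animals from 7 litters. The exposed animals were 25 of LDHA/B+CRMP1+STIP1 from 9 litters (lactate dehydrogenase A and B, collapsin response mediator protein 1 and stress-induced phosphoprotein 1), 8 of CRMP1+CRMP2 from 4 litters, 6 of CRMP1+GDA (guanine deaminase) from 3 litters and 8 of STIP1+NSE (neuron-specific enolase) from 4 litters. The libraries were made and sequenced in 2 batches. Batch 1 held 12 Control and 16 LDHA/B+CRMP1+STIP1 animals, and batch 2 held 12 Control animals, 9 of LDHA/B+CRMP1+STIP1 and all those of the remaining patterns. The exposure belongs to the dam, and littermates are not independent of each other.

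Total counts ran from 24880182 to 36234952 per animal, with a median of 28439195. Markers of other structures were not even among the slices. In 12 slices, 11 of them in batch 2, the geometric mean of the pineal markers (5 slices) or of the hindbrain and spinal cord markers (9 slices) reached 1 CPM (counts scaled to a common library total) after 0.1 CPM was added to each value. Each count of calls was repeated without those slices. Prox1, a gene of dentate granule cells, ran from 5.76 over 22.7 to 64 CPM, and Zbtb20, a regulator of hippocampal pyramidal neurons, from 4.82 over 13.5 to 33.7 CPM. Emx2 ran from 4.44 over 10.8 to 15.6 CPM and Wfs1, a gene of hippocampal CA1 neurons, from 6.94 over 16.3 to 23.5 CPM, so that all 4 were detected in every slice. These 4 were looked up after the other results were known. The CPM and RPKM levels from here on used library totals adjusted by edgeR's TMM normalization factors. Oligodendrocyte precursor markers (Pdgfra, Olig1, Olig2, Cspg4 and Sox10) summed to between 349 and 512 CPM per animal over all groups. Radial glia markers summed to between 1110 and 1930 CPM, and the neuron markers to between 6730 and 9030 CPM.

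The promoters of 28 of the 40 symbols were found in the RefSeq table of build GRCr8, and the 150 bases before the annotated start of 6 genes are shown because their genes differ in the results: Mki67, Top2a, Mcm6 and Mcm2 were lower in batch 2 in at least 1 set of animals, and Cdk1 and Ccnb1 were called in neither. Capitals mark matches on either strand to the E2F core (searched as TTGGCGC, then as TTCGCGC, then as TTCCCGC and then as TTGCCGC), to the CHR core (searched as TTTGAA and then as TTCGAA) or to the CCAAT box. Matches that overlap run together, as in TTCGCGCGAA, which holds the E2F core once on each strand.
Mcm2, chr4:122918095-122918244, minus strand: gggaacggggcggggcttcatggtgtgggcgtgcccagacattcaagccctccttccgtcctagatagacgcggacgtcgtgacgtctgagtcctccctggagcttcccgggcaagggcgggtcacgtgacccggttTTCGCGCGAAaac
Mcm6, chr13:42404353-42404502, minus strand: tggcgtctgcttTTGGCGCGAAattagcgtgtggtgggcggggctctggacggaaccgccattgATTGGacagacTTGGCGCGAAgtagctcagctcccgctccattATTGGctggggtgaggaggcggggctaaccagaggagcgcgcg
Mki67, chr1:199952594-199952743, minus strand: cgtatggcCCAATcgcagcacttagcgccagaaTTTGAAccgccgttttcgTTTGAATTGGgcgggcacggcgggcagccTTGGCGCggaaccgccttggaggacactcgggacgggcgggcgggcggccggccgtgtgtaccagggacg
Top2a, chr10:84473094-84473243, minus strand: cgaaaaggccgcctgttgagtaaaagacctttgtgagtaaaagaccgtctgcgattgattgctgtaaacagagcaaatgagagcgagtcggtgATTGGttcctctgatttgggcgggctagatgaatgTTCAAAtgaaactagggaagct
Cdk1, chr20:19265143-19265292, plus strand: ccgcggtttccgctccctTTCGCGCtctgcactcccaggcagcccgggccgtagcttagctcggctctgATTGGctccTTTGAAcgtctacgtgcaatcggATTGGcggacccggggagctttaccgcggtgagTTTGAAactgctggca
Ccnb1, chr2:33655226-33655375, minus strand: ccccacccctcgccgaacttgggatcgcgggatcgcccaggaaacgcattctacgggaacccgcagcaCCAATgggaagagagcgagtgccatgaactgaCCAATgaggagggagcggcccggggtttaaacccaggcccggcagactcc

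Over the full 250 bases before the start, the E2F core was present in 6 of 9 replication and S phase promoters (66.7%) and in 3 of 16 G2/M promoters (18.8%), beside 7.97% of all 27457 promoters. The 16 include that of Cenpe. The CHR core was in 3 of 9 (33.3%) and 8 of 16 (50%), beside 17.3% of all, and CCAAT in 6 of 9 (66.7%) and 13 of 16 (81.2%), beside 34.3%. The lists thus differed most in the E2F core, and CCAAT was common in both. Mki67, which was lower in batch 2 below, and Cdk1, which was not called, each held all 3 motifs in the stretch shown. A match is a run of letters and was not tested as a binding site.

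Levels were compared between genes per kilobase of exon (RPKM, computed here from the counts and the exon lengths in the table). Cdk4, the kinase partner of the D-type cyclins, was the most abundant member, with a median of 137 RPKM (range 99.6 to 168 over 71 animals). Pcna, the sliding clamp of DNA polymerase, followed at 61.3 RPKM (45.8 to 74.1), and cyclin D2 (Ccnd2) at 30.2 RPKM (16.6 to 54.4). Among the helicase subunits the medians were 28 RPKM for Mcm7, 17.3 for Mcm6, 13.4 for Mcm4, 6.79 for Mcm2, 6.28 for Mcm5 and 4.66 for Mcm3, although the subunits work together in 1 ring. Of the mitotic genes Cdk1 was highest at 11.1 RPKM (5.87 to 16.2), followed by Top2a, which untangles replicated DNA, at 9.41 RPKM (4.87 to 14.4). The proliferation marker Mki67 had a median of 3.46 RPKM (1.93 to 6.56). The lowest members were Cdc6, which loads the helicase, at 1.00 RPKM, Cdk6 at 1.84 RPKM and the kinetochore protein Cenpf at 1.99 RPKM. The range of Cdk4 lay above that of every other member, and the range of Pcna already overlapped that of Ccnd2, as did most neighbours further down.

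Ccnb2, cyclin B2, needs a caution. In the counting annotation it had 9 exon intervals on chromosome 8 (71087594 to 71100794) and 1 interval of 1491 bases on chromosome 1 (20099746 to 20101236), nearly as long as the 1488 bases of the 9. Its count therefore pools reads of both places, and its values are uncertain.

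Batch 2 was compared with batch 1 first, within Control and within LDHA/B+CRMP1+STIP1, the groups present in both. In Control animals 26 of the 39 members were lower in batch 2 and 0 were higher (edgeR's quasi-likelihood test, adjusted p under 0.1), beside 20.2% of all 12565 genes lower and 21.3% higher. In LDHA/B+CRMP1+STIP1 animals, which share no sample with the Control contrast, 28 were lower and 0 higher, beside 19.9% and 21.4% of 12533 genes. The median log2 fold change of the members was -0.29 in Control and -0.36 in LDHA/B+CRMP1+STIP1, against 0.00 for all genes in both. In these bulk samples, fewer dividing cells and less RNA per dividing cell cannot be told apart. Batch, litters, collection and sequencing run came together in this design and cannot be told apart either.

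**Figure D1:**
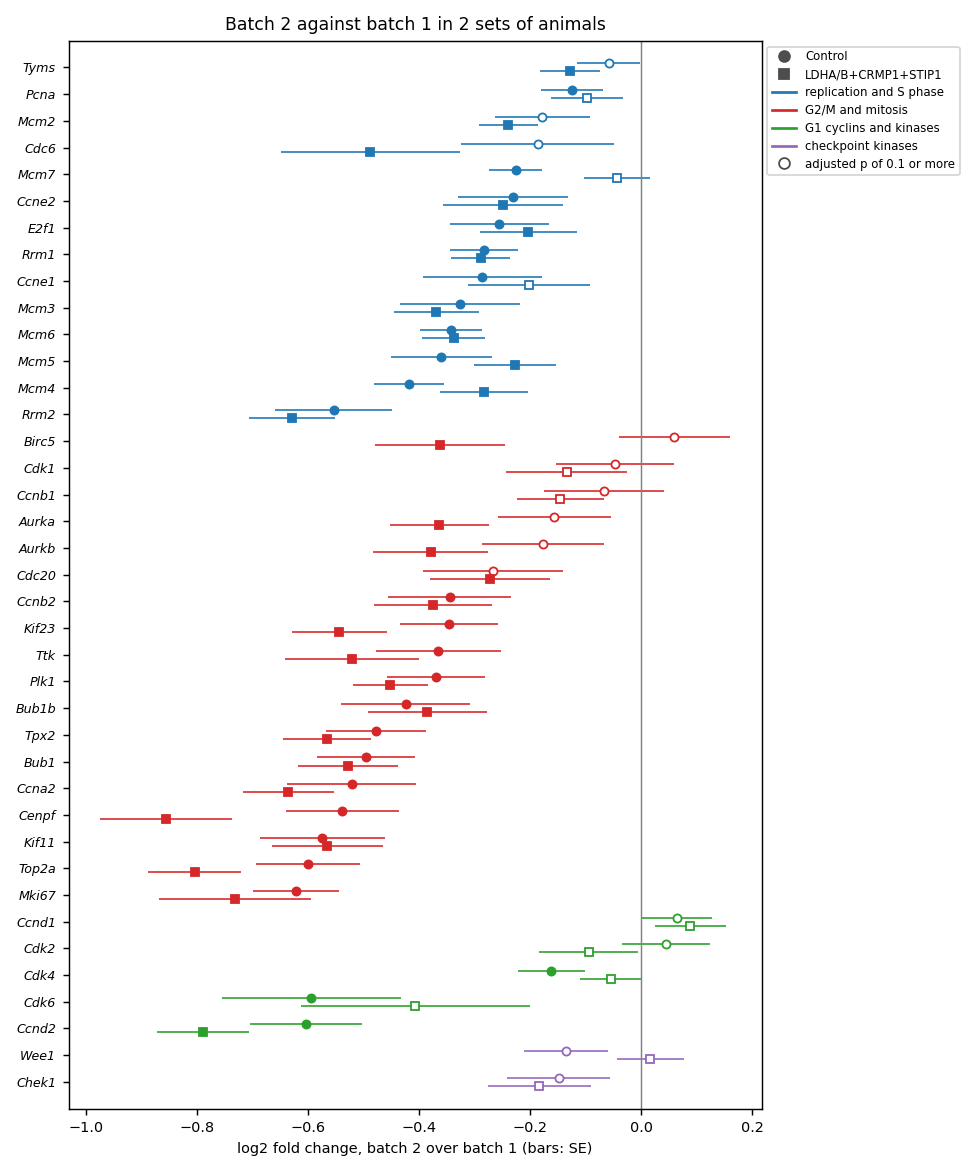
Log2 fold change of batch 2 over batch 1 (x axis) for the 39 members (rows), in Control (circles) and LDHA/B+CRMP1+STIP1 animals (squares), with bars of 1 SE and colours by list. Filled symbols have an adjusted p under 0.1, and every filled symbol lies below 0, from Cenpf and Top2a at the far left in LDHA/B+CRMP1+STIP1 to Ccnd1 and Birc5 above 0 in Control without a call.

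Among the mitotic genes, Mki67 and Top2a were much lower in batch 2. Mki67 (rn7, chromosome 1, 190496319 to 190522762, minus strand) ran from 38.1 CPM over a median of 41 to 47.5 CPM in the 12 Control animals of batch 1 and from 21.1 over 27.6 to 35.6 CPM in the 12 of batch 2. The 2 ranges did not overlap, which held for no other member in Control and for 0.772% of all genes in that direction. Its log2 fold change was -0.62 (SE = 0.08, adjusted p = 9.58e-07), and in LDHA/B+CRMP1+STIP1, where it ran from 29.4 over 41.3 to 64.8 CPM in batch 1 and from 19.1 over 27.4 to 35.3 CPM in batch 2, it was -0.73 (SE = 0.14, adjusted p = 0.000212).

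Top2a (rn7, chromosome 10, 83946186 to 83975696, minus strand) ran from 48.4 over 55.3 to 65.2 CPM in Control of batch 1 and from 26.6 over 35.3 to 56.5 CPM in Control of batch 2 (log2FC = -0.60, SE = 0.09, adjusted p = 2.04e-05). In LDHA/B+CRMP1+STIP1 it ran from 48.6 over 61.6 to 71.8 CPM and from 24.2 over 36.1 to 42.8 CPM (log2FC = -0.80, SE = 0.08, adjusted p = 1.13e-07). Only in the latter animals did the batches not overlap for Top2a, as they did not for Rrm2, beside 0.678% of all genes lower without overlap.

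Other genes of the mitotic machinery fell as well. Kif11, the motor that separates the spindle poles, fell by 0.57 on the log2 scale in both sets. Bub1, a kinase of the spindle checkpoint, fell by 0.50 (SE = 0.09) in Control and 0.53 (SE = 0.09) in LDHA/B+CRMP1+STIP1. Tpx2, which activates Aurora A on the spindle, fell by 0.48 and 0.57, and Cenpf by 0.54 (SE = 0.10) and 0.86 (SE = 0.12). Cyclin A2 (Ccna2) fell by 0.52 (SE = 0.12) and 0.64 (SE = 0.08), Plk1 by 0.37 and 0.45, and Kif23 by 0.35 and 0.54. In all, 12 of 18 G2/M genes were lower in Control and 16 of 18 in LDHA/B+CRMP1+STIP1, with list medians of -0.37 and -0.49.

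Cdk1 and Ccnb1, which form the kinase that starts mitosis, were not called in either set. Cdk1 ran from 8.97 over 13.7 to 16.6 CPM in Control of batch 1 and from 8.79 over 12.2 to 17.3 CPM in batch 2, so that the ranges overlapped almost wholly (log2FC = -0.05, SE = 0.11, adjusted p = 0.77). Ccnb1 ran from 11.5 over 16.1 to 22.1 CPM and from 9.56 over 15 to 19.4 CPM (log2FC = -0.07, SE = 0.11, adjusted p = 0.672). In LDHA/B+CRMP1+STIP1 the values were -0.13 (SE = 0.11) for Cdk1 and -0.15 (SE = 0.08) for Ccnb1. Birc5 (survivin), a partner of Aurora B, was at 0.06 (SE = 0.10) in Control and fell by 0.36 (SE = 0.12, adjusted p = 0.0188) in LDHA/B+CRMP1+STIP1.

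**Figure D2:**
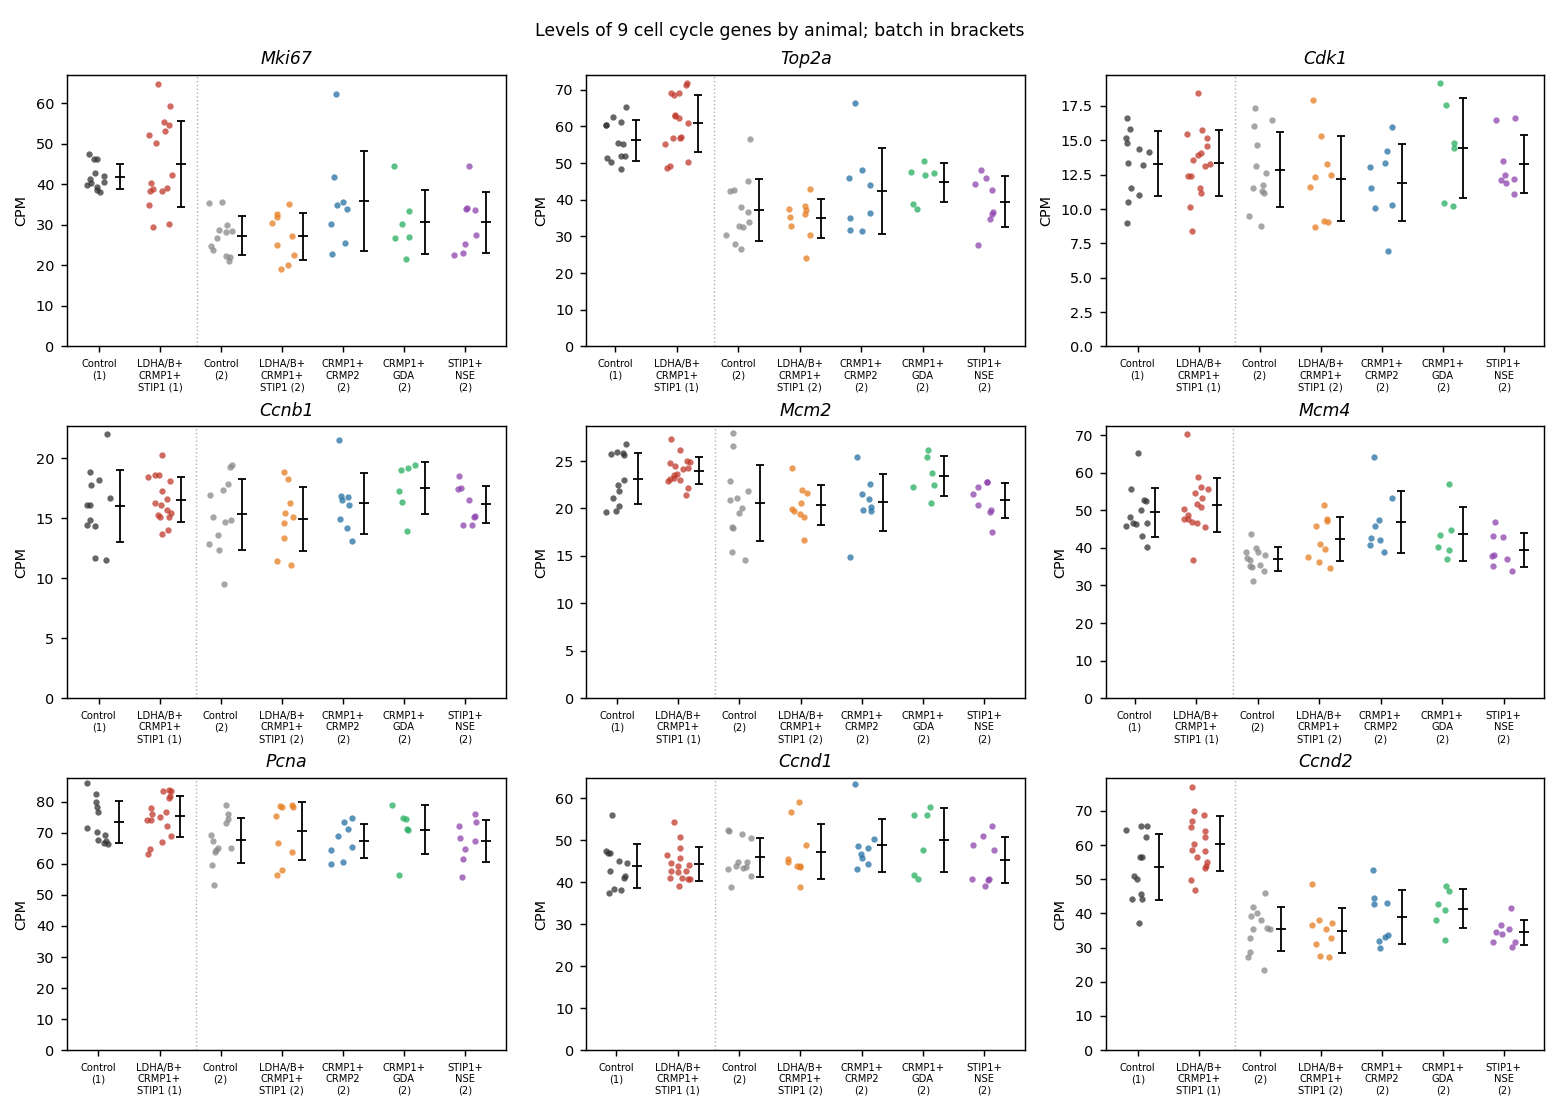
Level in CPM (y axis, from 0) of 9 members in each of 71 animals (points), by group and, in brackets, batch, with the mean and SD as the bar beside each group. The dotted line parts batch 1 from batch 2. Mki67, Top2a and Ccnd2 step down across it, and Cdk1, Ccnb1 and Ccnd1 do not.

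Of the 14 replication and S phase genes 11 were lower in each set, with list medians of -0.27 in Control and -0.24 in LDHA/B+CRMP1+STIP1. Rrm2, the small subunit of ribonucleotide reductase, fell most, by 0.55 (SE = 0.11, adjusted p = 0.000221) and 0.63 (SE = 0.08, adjusted p = 1.14e-06). Its partner Rrm1 fell by 0.28 (SE = 0.06) and 0.29 (SE = 0.05). Mcm6 fell by 0.34 (SE = 0.06) in both, and Mcm4 by 0.42 (SE = 0.06, adjusted p = 1.23e-05) in Control and 0.28 (SE = 0.08, adjusted p = 0.00781) in LDHA/B+CRMP1+STIP1.

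Mcm2 ran from 19.6 over 22.7 to 26.8 CPM in Control of batch 1 and from 14.6 over 20.5 to 28 CPM in batch 2, with ranges that overlapped (log2FC = -0.18, SE = 0.09, adjusted p = 0.108). It was lower in LDHA/B+CRMP1+STIP1 (log2FC = -0.24, SE = 0.05, adjusted p = 0.0012). Pcna ran from 66.5 over 70.9 to 85.9 CPM and from 53.2 over 66.3 to 78.9 CPM in Control (log2FC = -0.13, SE = 0.06, adjusted p = 0.0834), and was at -0.10 (SE = 0.06) in LDHA/B+CRMP1+STIP1. Tyms, the thymidylate synthase, was at -0.06 (SE = 0.06) in Control and fell by 0.13 (SE = 0.05) in LDHA/B+CRMP1+STIP1. In both sets Mcm2, Pcna and Tyms were nearer to 0 than Rrm2.

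The G1 genes were split. Ccnd2 (rn7, chromosome 4, 159966883 to 159989261, minus strand) ran from 37.2 over 53.6 to 65.5 CPM in Control of batch 1 and from 23.5 over 35.6 to 46.0 CPM in batch 2 (log2FC = -0.60, SE = 0.10, adjusted p = 4.73e-05), and it fell by 0.79 (SE = 0.08, adjusted p = 1.22e-07) in LDHA/B+CRMP1+STIP1. Its relative Ccnd1 ran from 37.3 over 43.6 to 56.1 CPM and from 38.8 over 44.3 to 52.3 CPM, with no call (log2FC = 0.06, SE = 0.06, adjusted p = 0.464). Cdk6 fell by 0.59 (SE = 0.16) and Cdk4 by 0.16 (SE = 0.06) in Control alone, with -0.41 (SE = 0.21) and -0.06 (SE = 0.06) in LDHA/B+CRMP1+STIP1, and the difference between the sets was not called for either (0.19, SE = 0.26, and 0.11, SE = 0.08). Cdk2 and the checkpoint kinases Chek1 and Wee1 were called in neither set.

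The 2 contrasts shared 21 members lower in both, which is 80.8% of those called in Control and 75% of those called in LDHA/B+CRMP1+STIP1. Over all genes the same shares of lower calls were 72.8% and 74%, near those of the members. Of the members tested 53.8% were lower in both, beside 14.8% of all 12457 genes tested in both. The 21 were 12 G2/M genes, 8 replication genes and Ccnd2, and the 6 called in neither were Cdk1, Ccnb1, Ccnd1, Cdk2, Chek1 and Wee1. With the counts summed per litter, 12 members were lower in Control (3 litters against 4), beside 6.84% of all genes, and 21 in LDHA/B+CRMP1+STIP1, beside 7.2%. With the litter as a random effect 17 and 23 were lower, beside 10.4% and 13.9%.

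The genes of the same pathways outside the members went the same way. Over all genes 20.2% were lower and 21.3% higher in Control, and 19.9% and 21.4% in LDHA/B+CRMP1+STIP1. Of 25 other mitotic genes tested, 18 were lower and 0 higher in Control, and 19 were lower and 1 higher (Bub3, 0.21) in LDHA/B+CRMP1+STIP1, with medians of -0.32 and -0.39. Of 26 other E2F and replication genes, 11 and 14 were lower and 0 were higher. Among them were Lmnb1 (lamin B1, -0.32 and -0.38), the condensin subunit Smc4 (-0.49 and -0.51), the kinetochore gene Knl1 (-0.70 and -0.67), and Pola1 (DNA polymerase alpha, -0.52 and -0.62).

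Of 10 tested inhibitors of the cycle and pocket proteins, 3 were higher and 2 lower in each set. These counts were near the shares of all genes, with 21.3% higher and 20.2% lower in Control and 21.4% and 19.9% in LDHA/B+CRMP1+STIP1. Cdkn1c (p57) was higher by 1.75 (SE = 0.23, adjusted p = 3.95e-06) in Control and 1.66 (SE = 0.17, adjusted p = 1.99e-07) in LDHA/B+CRMP1+STIP1. Cdkn1a (p21) was higher by 1.03 (SE = 0.13) and 0.74 (SE = 0.12), and Cdkn2d by 0.19 and 0.18. The pocket protein Rbl1 (p107) was lower by 0.31 in Control (log2FC = -0.31, SE = 0.10) and by 0.57 in LDHA/B+CRMP1+STIP1 (log2FC = -0.57, SE = 0.11). Cdkn1b (p27) was called in neither.

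Markers of cell types and structures moved with batch too. The counts below stand beside 20.2% of all genes lower and 21.3% higher in Control, and 19.9% and 21.4% in LDHA/B+CRMP1+STIP1. Of 6 markers of the ganglionic eminence and subventricular progenitors, 5 were lower in each set, with medians of -0.87 in both. Their summed level ran from 173 over 257 to 364 CPM in Control of batch 1 and from 130 over 156 to 189 CPM in batch 2. All 6 choroid plexus markers were higher in batch 2, with a summed level from 4.04 to 111 CPM in Control of batch 1 and from 125 to 2850 CPM in batch 2. The 3 markers of cerebellar granule progenitors that were tested (Barhl1, Barhl2 and Mab21l1) were higher (medians 2.18 and 2.02), with a summed level from 1.70 to 22.5 CPM and from 16.8 to 62.4 CPM. Atoh1, the remaining marker of that list, was too low to be tested, so the cell type is not shown by these genes. Of 10 radial glia markers 4 were higher and 3 lower in each set, and of 5 oligodendrocyte precursor markers edgeR called 0 in either direction, with 0 at an unadjusted p under 0.05. Of 5 erythroid markers 2 and 5 were higher. The 6 hindbrain and spinal cord markers were higher in LDHA/B+CRMP1+STIP1 only (median 8.03), and of the 2 tested in Control 0 were called. Their summed level in LDHA/B+CRMP1+STIP1 of batch 2 had a median of 0.418 CPM and a maximum of 85.2 CPM, so only some slices were high. Of the 12 slices named above, animal 14 was in the Control set and animals 4, 5 and 6 were in the LDHA/B+CRMP1+STIP1 set. The rest belonged to other patterns. Without the slices in each set, 25 members were lower in each, beside 20.3% of all genes in Control and 15.5% in LDHA/B+CRMP1+STIP1. Few animals were thus left out. The part of the other markers in the result was not tested.

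The batch difference also moved with transcript size. Among the 18 G2/M genes the log2 fold change fell with the log2 exon length (Pearson r = -0.76 in Control and -0.68 in LDHA/B+CRMP1+STIP1), and among all 39 members r was -0.46 and -0.41. These are correlations over genes that share the same libraries, chosen after the values were seen. Mki67, Top2a, Cenpf, Kif11, Bub1 and Bub1b, the 6 longest members at 4380 bases or more, were all lower in both. Birc5 (878 bases), Pcna (1160 bases) and Cdk1 (1187 bases), the 3 shortest, were at 0.06, -0.13 and -0.05 in Control and at -0.36, -0.10 and -0.13 in LDHA/B+CRMP1+STIP1, where Birc5 was called. Ccnd2 (1414 bases) and Ccna2 (1712 bases) were short and much lower, and Ccnd1 (3809 bases) and Ccnb1 (3273 bases) were longer and were not called.

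Over all genes the relation was weak (r = -0.06 and -0.11 over 12457 genes). For all genes the median went from 0.05 under 1000 bases to -0.06 at 5000 bases and over in Control, and from 0.10 to -0.10 in LDHA/B+CRMP1+STIP1. After the median of all genes of the same length class was subtracted, the replication genes had medians of -0.26 and -0.24 and the G2/M genes of -0.37 and -0.46. The relation with length inside the G2/M list is not removed by this subtraction.

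**Figure D3:**
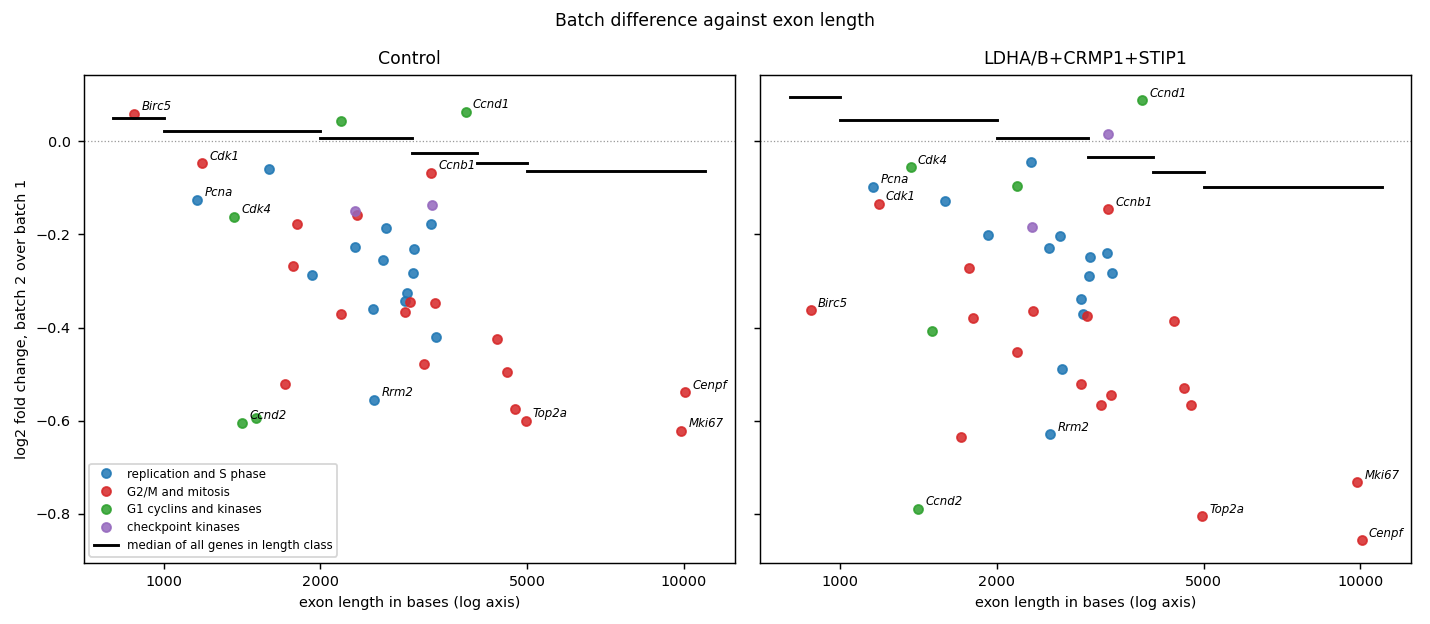
Log2 fold change of batch 2 over batch 1 (y axis) against exon length (x axis, log scale) for the 39 members, in Control (left) and LDHA/B+CRMP1+STIP1 (right). The black steps are the medians of all genes in 6 length classes, which stay between -0.10 and 0.10, while Top2a, Mki67 and Cenpf lie far below them at the right of both panels.

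Replication and G2/M genes were then set side by side as the mean log2 CPM of each list per animal, with no test on these means. The replication mean ran from 4.56 over 4.67 to 4.8 in Control of batch 1 and from 4.17 over 4.39 to 4.63 in Control of batch 2. The G2/M mean ran from 3.67 over 3.96 to 4.22 and from 3.28 over 3.56 to 3.93. In batch 2 the other patterns overlapped Control, with medians of the replication mean from 4.43 to 4.52 and of the G2/M mean from 3.55 to 3.72.

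The difference of the means (G2/M minus replication) was -0.73 ± 0.10 (SD, n = 12) in Control of batch 1 and -0.81 ± 0.13 (n = 12) in batch 2, and -0.73 ± 0.09 (n = 16) and -0.94 ± 0.16 (n = 9) in LDHA/B+CRMP1+STIP1. In Control the G2/M genes thus fell 0.08 more than the replication genes, less than 1 SD, and in LDHA/B+CRMP1+STIP1 0.21 more. With each gene scaled to its own SD the difference in Control was 0.06, of the opposite sign. Whether the mitotic genes fell more than the replication genes therefore depended on the scale in Control.

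**Figure D4:**
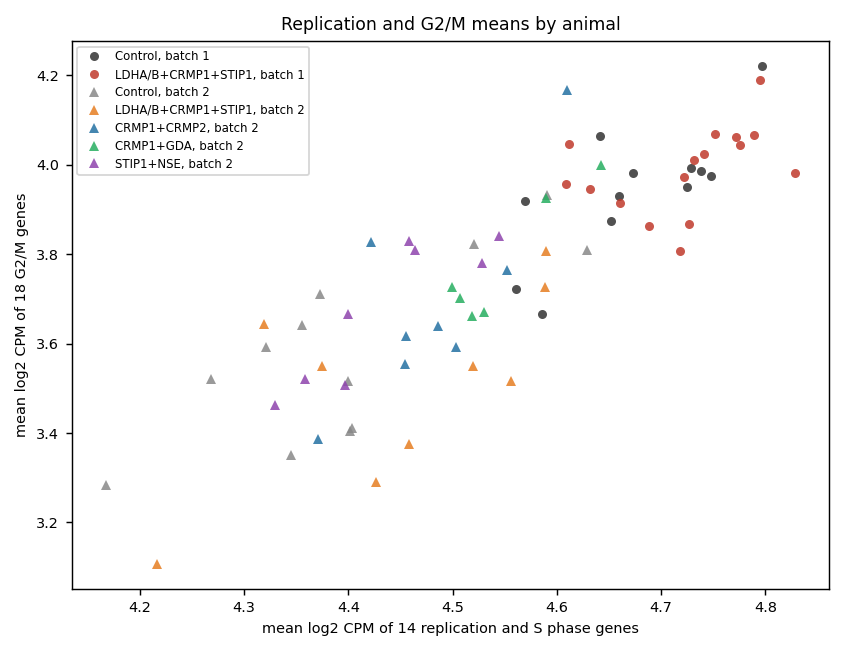
Mean log2 CPM of the 18 G2/M genes (y axis) against that of the 14 replication and S phase genes (x axis), 1 point per animal, with circles for batch 1 and triangles for batch 2 and colours by group. Batch 1 takes the upper right, the patterns of batch 2 overlap its Control animals, with single animals above or below the Control range, and both means rise together within each batch.

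Within the batches the means of both lists rose and fell together. With group means subtracted, Pearson's r of the replication and the G2/M mean was 0.60 over 28 animals of batch 1 and 0.75 over 43 of batch 2 (Spearman's rho 0.61 and 0.66), with the library in common. Against the mean of the other G2/M genes over 71 animals, r was highest for Tpx2 (0.80), Top2a (0.80), Ccna2 (0.80) and Kif11 (0.76) and lowest among the G2/M genes for Aurka (0.16), Birc5 (0.35), Bub1 (0.37) and Mki67 (0.42).

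The replication genes ranged widely in their r with the G2/M mean. It was highest for Mcm2 (0.71), Rrm2 (0.64), Mcm3 (0.64) and Rrm1 (0.61), lay between for genes such as Cdc6 (0.30), Pcna (0.29) and Ccne1 (0.18), and was lowest for Mcm7 (0.04), Mcm4 (0.03), Ccne2 (-0.03) and Tyms (-0.03). Ccne2, cyclin E2, had r = -0.35 with the mean of the other replication genes. Ccnd1 (0.58) and Ccnd2 (0.66) both went with the G2/M mean within groups, although Ccnd2 alone fell between batches. Outside all lists, the 8 genes most like the G2/M mean over 71 animals were Dlgap5 (r = 0.77), Gtse1 (0.72), Arhgap11a (0.70), Kif22 (0.70), Nek2 (0.69), Melk (0.68), Spag5 (0.68) and Nde1 (0.67).

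The G2/M mean also went with the radial glia markers within groups (r = 0.46 in batch 1 and 0.70 in batch 2, Spearman's rho 0.36 and 0.73). With the ganglionic eminence markers r was 0.29 and 0.23. For the choroid plexus markers it was 0.02 in batch 1 and 0.52 in batch 2. For the neuron markers it was 0.40 in batch 1 and -0.28 in batch 2 (rho 0.56 and -0.30).

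Litters accounted for part of the spread within groups. The intraclass correlation of littermates, which is 0 where littermates are no more alike than other animals of the group, had a median of 0.19 over the members, beside 0.27 over all 12477 genes. It was highest for Ccnd1 (0.60) and Ccne2 (0.49) and lowest for Wee1 (-0.13). For the replication mean it was 0.26 and for the G2/M mean 0.17.

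The exposures came next, and gave few calls. All exposed animals against all Control animals gave 0 of 39 members called by edgeR with a surrogate variable, beside 0.0321% of 12477 genes. At an unadjusted p under 0.05 there were 4 members, all higher, beside 10.3% of all genes, and DESeq2 called 0. These were Cdc6 (log2FC = 0.30, SE = 0.08, adjusted p = 0.227), Mcm4 (0.14, SE = 0.04, adjusted p = 0.276), Bub1 (0.15, SE = 0.06) and Cdk4 (0.08, SE = 0.03). Toward lower levels the smallest p belonged to Rrm2 (-0.06), Rrm1 (-0.02) and Ccnb2 (-0.03). The members' standard errors ran from 0.03 to 0.13. Without litter 9_5 of Control, edgeR called Cdc6 (log2FC = 0.35, adjusted p = 0.0484), beside 0.505% of all genes called in that setting.

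For CRMP1+CRMP2 against Control 1 of 39 members was called, beside 4.83% of 12691 genes higher and 11.4% called in either direction, so that the members' share lay below the background. It was Mcm4 (rn7, chromosome 11, 85258443 to 85272144, plus strand), a subunit of the replicative helicase, which ran from 39.0 over 44.2 to 64.2 CPM in the 8 exposed animals, and from 31.3 over 37.1 to 43.7 CPM in the 12 Control animals of the same batch. The Control animals of batch 1 ran from 40.3 over 47.4 to 65.2 CPM, so that the exposed animals were high only against their own batch. Its log2 fold change with the surrogate variable was 0.27 (SE = 0.06, adjusted p = 0.00856), and within batch 2 alone 0.35 (adjusted p = 0.0818).

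The Mcm4 call was lost with the counts summed per litter (adjusted p = 0.392), with the litter as a random effect (0.125), without litter 9_6 (0.102) and without the slices that held pineal or hindbrain RNA (0.274), while the estimate stayed between 0.24 and 0.35. In those settings, in that order, 0%, 0.26%, 0.324% and 0.00794% of all genes were called, against 11.4% as reported. Nearly all calls of this comparison were thus lost along with Mcm4. The other members named by the rule were Bub1 (0.20, SE = 0.11) and Cdc6 (0.23, SE = 0.13) upward and Birc5 (-0.23, SE = 0.10), Rrm2 (-0.26, SE = 0.15) and Rrm1 (-0.13, SE = 0.08) downward, none of them called. Without litter 9_16, 4 members were called, 3 of them higher, beside 22.8% of all genes called in either direction. Mki67 was at 0.21 (SE = 0.15) and Top2a at -0.01 (SE = 0.15). In the same comparison the markers of other structures moved: all 6 choroid plexus markers (median 2.05) and all 4 pineal markers tested (median 4.92) were higher, and of the 6 ganglionic eminence markers 2 were lower and 1 higher (median -0.49). Within batch 2 the summed choroid plexus level overlapped, at 179 over 1100 to 3260 CPM in CRMP1+CRMP2 and 125 over 701 to 2850 CPM in Control. The summed pineal level ran from 1.05 over 1.45 to 238 CPM and from 0.638 over 0.962 to 2.69 CPM, so only some exposed slices were high. The part of these markers in the Mcm4 difference was not tested. Rb1, the retinoblastoma protein, was the called gene among the 10 inhibitors and pocket proteins tested (0.19, SE = 0.07, adjusted p = 0.0876).

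**Figure D5:**
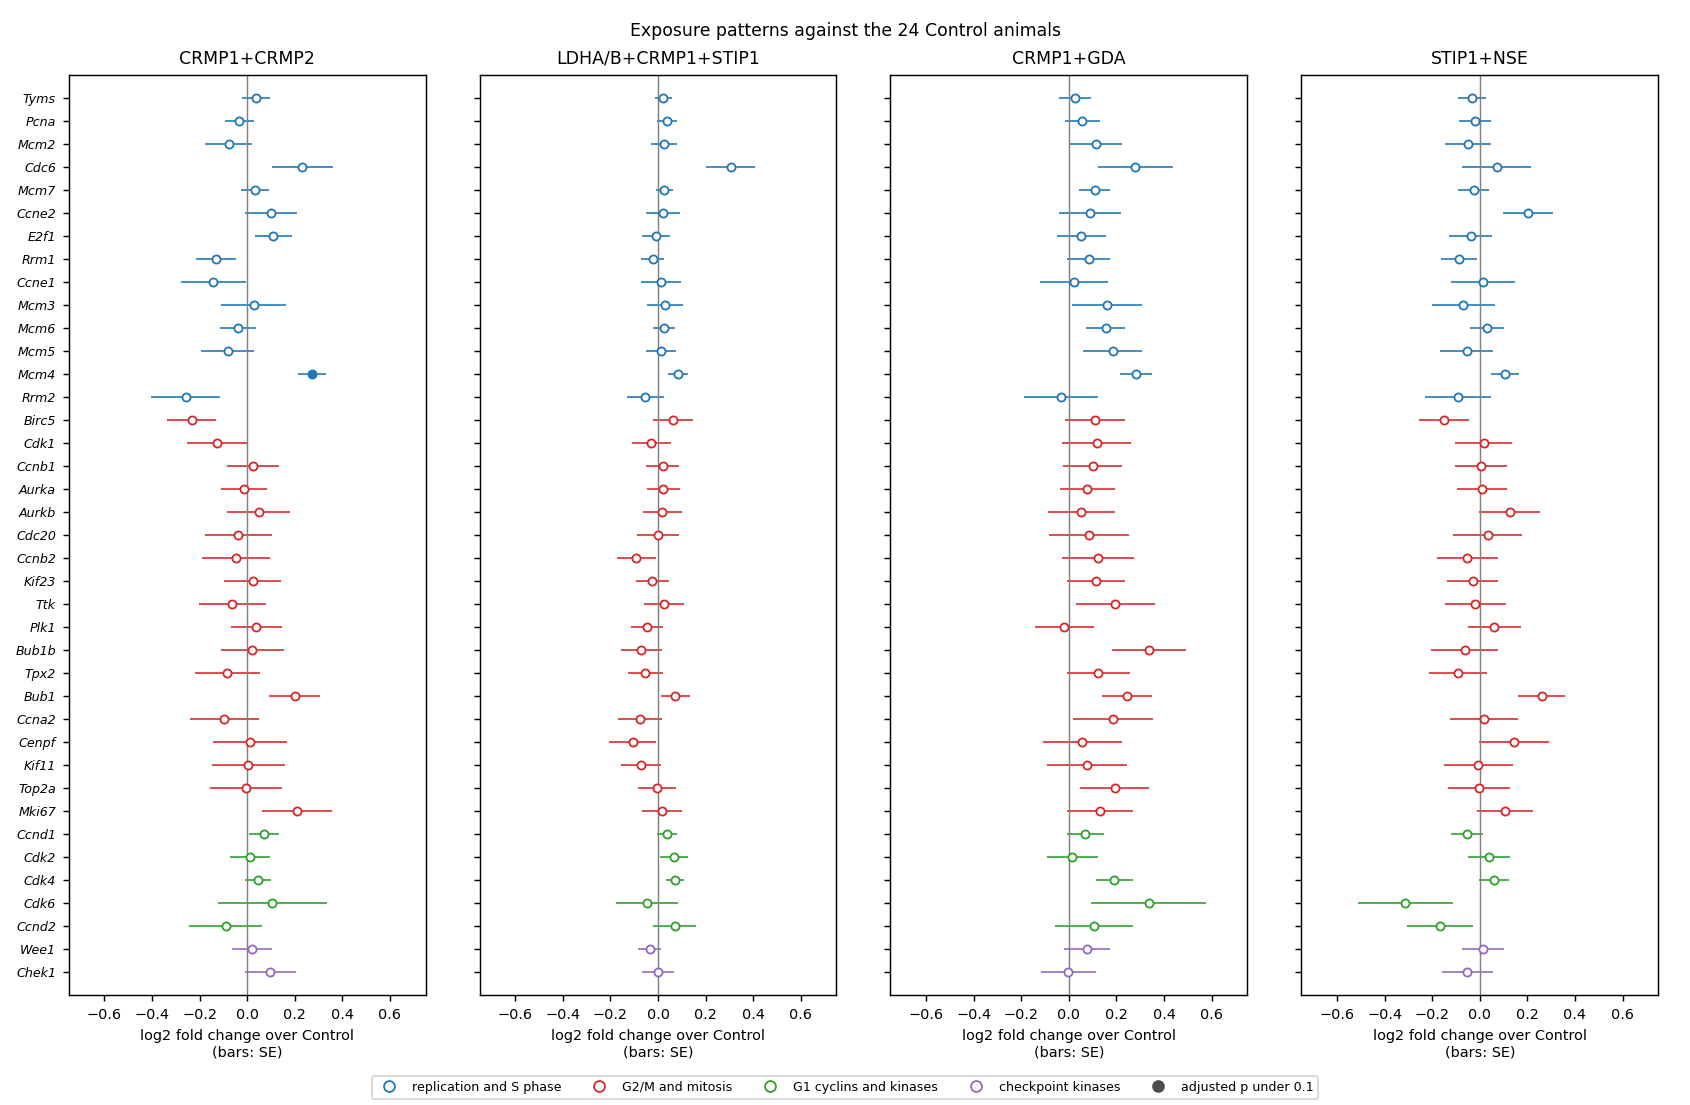
Log2 fold change over the 24 Control animals (x axis) of the 39 members (rows) for each exposure pattern (panels), with bars of 1 SE and colours by list. Mcm4 in CRMP1+CRMP2 is the only filled point, with an adjusted p under 0.1. The panels share their Control animals.

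The remaining patterns gave 0 calls each. LDHA/B+CRMP1+STIP1 against Control had 1 member at an unadjusted p under 0.05 (beside 7.17% of all genes, and 0.0157% called), which was Cdc6 (log2FC = 0.30, SE = 0.10, adjusted p = 0.389), and DESeq2 called 0. Mcm4 (0.08) and Cdk4 (0.07) followed upward, and Ccnb2 (-0.09), Cenpf (-0.11) and Kif11 (-0.07) downward. Without the slices that held pineal or hindbrain RNA, edgeR called Cdc6 (0.37, adjusted p = 0.0839), beside 1.7% of all genes called in that setting.

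CRMP1+GDA had 36 of 39 members above 0 with a median of 0.11, beside 6423 of 12641 genes above 0 with a median of 0.00. The median was 0.05 without litter 9_18, 0.17 without 9_3 and without 9_8, and 0.07 with the litter as a random effect. Of these 0 were called (0% of all genes), and 4 had an unadjusted p under 0.05, beside 3.65%: Mcm4 (0.28, SE = 0.07, adjusted p = 0.546), Cdk4 (0.19, SE = 0.08), Bub1 (0.24, SE = 0.11) and Bub1b (0.34, SE = 0.15). DESeq2 called 0 members, and without litter 9_3 edgeR called Mcm4 (0.37, adjusted p = 0.0809), beside 0.0317% of all genes called in that setting. Rrm2 (-0.03), Plk1 (-0.02) and Chek1 (0.00) were the 3 below 0.

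STIP1+NSE had 1 member at an unadjusted p under 0.05 (beside 3.19%, and 0.0474% called), which was Bub1 (0.26, SE = 0.10, adjusted p = 1), and DESeq2 called 0. Ccne2 (0.20), Mcm4 (0.11), Cdk6 (-0.31), Birc5 (-0.15) and Ccnd2 (-0.17) were next by p. The 4 patterns were set against the same Control animals, so Mcm4 and Bub1 being above 0 in each is not 4 separate observations. The median SE of the members was 0.07 for LDHA/B+CRMP1+STIP1, 0.11 for CRMP1+CRMP2 and STIP1+NSE and 0.13 for CRMP1+GDA. Differences of that size, and also some well above it, could not be told from 0. For example, Mcm4 was at 0.28 in CRMP1+GDA and was not called.

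Within batches, LDHA/B+CRMP1+STIP1 gave 0 calls among the members in batch 1 (0.0161% of all genes called) and 0 in batch 2 (0%), by edgeR and by DESeq2. At an unadjusted p under 0.05 there were 3 members in batch 1, beside 5.45% of all genes, and 4 in batch 2, beside 5.62%. In batch 1 these were Cdc6 (0.46, SE = 0.13), Birc5 (0.24, SE = 0.11) and Ccnd2 (0.18, SE = 0.08), with Wee1 (-0.10), Bub1b (-0.08) and Mcm7 (-0.04) the lowest by p. In batch 2 they were Mcm4 (0.19, SE = 0.07), Cenpf (-0.28, SE = 0.11), Mcm7 (0.15, SE = 0.06) and Cdk4 (0.14, SE = 0.07), followed downward by Birc5 (-0.18) and Kif23 (-0.12).

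The G2/M genes had a median of 0.05 in batch 1, with 13 of 18 above 0, and of -0.09 in batch 2, with 2 of 18 above 0. Without litter RNA4 the batch 1 median was -0.04, and without litter IgG2 it was 0.12, so that its sign rested on 1 litter. The difference of the effect between batches was called for 0 members, beside 0.11% of 12700 genes. At an unadjusted p under 0.05 it was met by Birc5 (-0.42, SE = 0.15), Mcm7 (0.18, SE = 0.08) and Cenpf (-0.32, SE = 0.16), beside 3.05% of all genes, and DESeq2 called 0. Next in each direction were Wee1 (0.15) and Mcm4 (0.13) upward and Kif23 (-0.20) downward.

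Among the 5 groups of batch 2 no member was called (0 of 39 by edgeR and 0 by DESeq2, beside 0.00785% of 12738 genes), and 6 had an unadjusted p under 0.05, beside 7.78%. They were Mcm4 (p = 0.00325), Cenpf (0.0113), Bub1 (0.0229), Bub1b (0.0235), Ccna2 (0.0298) and Birc5 (0.0478). The median of Mki67 in batch 2 went from 27.4 CPM in LDHA/B+CRMP1+STIP1 and 27.6 in Control over 28.7 in CRMP1+GDA and 30.6 in STIP1+NSE to 34.3 in CRMP1+CRMP2, and all 5 ranges overlapped. For Top2a the order was Control (35.3), LDHA/B+CRMP1+STIP1 (36.1), STIP1+NSE (39.7), CRMP1+CRMP2 (40.3) and CRMP1+GDA (47.0), with overlap among all.

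The other named members lay close together in batch 2 as well. The medians of Cdk1 ran from 12.2 CPM in Control to 14.6 CPM in CRMP1+GDA, within single values from 6.97 to 19.2 CPM. Those of Ccnb1 ran from 15 CPM in Control to 18.2 CPM in CRMP1+GDA, and those of Mcm2 from 19.9 CPM in LDHA/B+CRMP1+STIP1 to 23.1 CPM in CRMP1+GDA. CRMP1+GDA thus had the highest median of these 3 genes, with ranges that overlapped those of Control.

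Among the G1 cyclins the medians of Ccnd1 ran from 44.2 CPM in STIP1+NSE to 51.9 CPM in CRMP1+GDA, and those of Ccnd2 from 34.2 CPM in STIP1+NSE to 41.8 CPM in CRMP1+GDA. The medians of Pcna lay between 66.3 CPM in Control and 75.5 CPM in LDHA/B+CRMP1+STIP1. In batch 1 the medians of LDHA/B+CRMP1+STIP1 were 13.4 CPM for Cdk1, 16.2 for Ccnb1, 23.9 for Mcm2, 75.6 for Pcna, 43.3 for Ccnd1 and 59.4 for Ccnd2, beside 13.7, 16.1, 22.7, 70.9, 43.6 and 53.6 CPM in Control. The ranges overlapped for each of the 6.

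Males and females were compared within litters. Litters 9_3, 9_6, 9_10, 9_24 and 9_25 held a single sex and so gave no comparison within the litter. No member was called (0 of 39 by edgeR and 0 by DESeq2, beside 0.0702% of 12816 genes), and 2 had an unadjusted p under 0.05, beside 7.9%. Aurkb, the kinase of the chromosomal passenger complex, was at 0.15 (SE = 0.06, adjusted p = 0.545) and Ccna2 at 0.11 (SE = 0.06, adjusted p = 0.624) in males over females, followed by Bub1b (0.12), and E2f1 (-0.07), Kif23 (-0.06) and Mcm4 (-0.05) had the smallest p downward. Of the 39 members 30 were above 0, with a median of 0.03, beside 6539 of 12816 genes and a median of 0.00. The members' median was 0.02 without litter 9_14 and 0.01 without the slices that held pineal or hindbrain RNA.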

How the data were processed

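Total RNA of 71 slices was sequenced after poly-A selection with paired ends. Per the study's methods the authors aligned reads to rn7 with STAR 2.5.4b and deposited featureCounts counts per gene, beside an exon length per gene in bases, another deposited column. The options for strand and shared reads were not given in the sources used here, and 74.5% of the counts from 1 to 9 were even. All 71 count columns matched a sample title, and 0 were left over. The 40 members, the pathway and marker lists and the tests were chosen with earlier results of these data known.

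Genes over 1 CPM in at least 2 animals (at least 8 for all exposed animals together) were fitted in edgeR 4.0.16 (R 4.3.3; TMM, robust quasi-likelihood test), with Benjamini-Hochberg adjustment over all genes tested and calls under 0.1. Exposures had 1 surrogate variable (sva 3.50.0) as covariate, contrasts of batches or within batches had sex, and sex had the litter. Animals were the replicates as in the study, although littermates share a dam. Log2 CPM values had a prior count of 2, and RPKM was computed from the counts and exon lengths. Batch was the title series. Alternatives were DESeq2 1.42.0, other scalings, no filter, other covariates, sums of counts per litter, a random effect of litter (limma 3.58.1) and leaving out each litter. Fits were tested on simulated data. At these depths 1 CPM was 24.9 to 36.2 counts. Named were 8 members with values by group, the 3 members of smallest p in each direction of a comparison, called members up to 10, and the 8 genes most like the G2/M mean. Other members were named beyond that rule, for their roles or length, after their values were seen. The values of 1 marker gene are not reported here.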

Additional observations from a re-analysis of the deposited data

Results flagged for a closer look

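Over 44 pairs of a group and a gene or mean with 4 to 10 animals, 4 held 1 animal far from the others by Dixon's test, where chance gives about 1 in 20. In CRMP1+CRMP2, 1 male of litter 9_6 had the highest level of Top2a (66.4 CPM, next 48.0), Ccnb1 (21.6 CPM, next 16.8) and Ccnd1 (63.4 CPM, next 50.3), and its slice was among those that held hindbrain marker RNA (mean log2 level 1.57). In CRMP1+GDA, 1 female of litter 9_8 had the lowest level of Pcna (56.4 CPM, next 70.8), and its slice held hindbrain marker RNA as well (mean log2 level 3.55). The part of that tissue in these levels was not tested.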

How the results depend on the processing

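Of 186 alternative values for counts of called members and for the list difference, 174 kept their side and size, 11 moved and 1 changed sign. Of 1218 for the members that the naming rule picked in each comparison (the other members named in the report were not tracked singly), 1184 kept direction and side of the threshold. The cause of each change below was not tested. Leaving out 1 litter gave 0 to 1 called members for all exposed animals, 0 to 4 for CRMP1+CRMP2 (0 without 9_6, and 4 without 9_16), 0 to 1 for CRMP1+GDA (1 without 9_3), 23 to 25 for batch in Control and 25 to 28 for batch in LDHA/B+CRMP1+STIP1. The shares of all genes called were 0% to 0.505% for all exposed animals and 0.00793% to 0.0317% for CRMP1+GDA. For CRMP1+CRMP2 they were 0.324% without 9_6 and 22.8% without 9_16. For batch they were 32.9% to 40.7% in Control and 32.8% to 42.9% in LDHA/B+CRMP1+STIP1. With counts summed per litter CRMP1+CRMP2 had 0 and batch in Control 12, beside 0% and 15.6% of all genes. With the litter as a random effect they had 0 and 17, beside 0.26% and 22.5%. Without slices that held pineal or hindbrain RNA, chosen after seeing the data, CRMP1+CRMP2 had 0, beside 0.00794% of all genes. LDHA/B+CRMP1+STIP1 had 1 without them, beside 1.7%. With z-scores the S against G2/M difference was 0.0601 in Control and -0.3888 in LDHA/B+CRMP1+STIP1.

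Values close to 0 changed sign. For MARA against Control, Rrm1 was at 0.0010 with batch and sex as covariates, 0.0083 in batch 2 alone and -0.0654 to 0.0306 over single litters left out, and Ccnb2 at 0.0382 in batch 2 alone and -0.0877 to 0.0154 over litters. For LDHA/B+CRMP1+STIP1 against Control, Kif11 was at 0.0169 without those slices. For CRMP1+GDA against Control, Chek1 was at 0.0004 with no filter, 0.0032 with the litter as a random effect and -0.0385 to 0.0810 over litters. With batch and sex, in batch 2 alone, with litter sums and without those slices, Rrm2 was at 0.0322, 0.0455, 0.0071 and 0.0146 (-0.1056 to 0.1155 over litters) and Plk1 at 0.0494, 0.0525, 0.0254 and 0.0409 (-0.0673 to 0.0723 over litters). For batch in Control, over litters, Ccnd1 ran from -0.0148 to 0.1436 (called without IgG2) and Birc5 from -0.0380 to 0.1146. For batch in LDHA/B+CRMP1+STIP1, Wee1 was at -0.0375 without those slices and -0.0072 to 0.0452 over litters, and Ccnd1 ran from -0.0058 to 0.1397 over litters.

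Males and females were compared with the litter as a block. For exposure and batch, no paired analysis was possible because replicate numbers name animals and each litter had 1 exposure and 1 batch. With 3 to 9 litters per group, differences near the standard errors given in the report, and some well above them, could not be told from 0. This held at 24880182 or more counts per animal.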
